A study of Homo sapiens with 6 samples.

Results

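The 9 surface molecules of plasma cells, or for CD79A of B cells, that myeloma drugs, antibodies or engineered T cells are directed at, or that have been tried as such targets, are described here by the messenger RNA of their genes. They are TNFRSF17, TNFRSF13B, CD38, SLAMF7, FCRL5, GPRC5D, SDC1, CD48 and CD79A, taken by gene symbol, and 9 of 9 were found among the 56637 symbols counted in each library. The cells were MM.1S, an established human multiple myeloma line. The shKDM6B group carried a lentiviral short hairpin RNA against KDM6B, a histone demethylase gene, and the shLuc group carried one against luciferase as the control. Both groups were selected with puromycin and had 3 libraries each. All 6 libraries come from 1 cell line, and the labels do not say that replicates were kept as separate cultures, nor how many hairpins against KDM6B were used, so each p-value reflects the spread among these libraries and may be technical in part.

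Libraries held 7952156 to 9848351 counts in shKDM6B cells and 7338393 to 8996159 in shLuc cells. KDM6B itself averaged 32.6 ± 2.37 CPM (counts scaled to the effective library size) in shKDM6B cells and 53.8 ± 4.90 CPM in shLuc cells (SD, n = 3 each), which is 61.1% of shLuc (adjusted p = 7.72e-08 by edgeR). Of 11 plasma cell markers, all tested, 4 are themselves antigen genes described here (TNFRSF17, SDC1, CD38 and SLAMF7). The other 7 summed to 2130 to 2410 CPM in shKDM6B and 2180 to 2440 CPM in shLuc libraries. Of the 11, 1 was higher (PRDM1) and 3 lower (POU2AF1, TNFRSF17 and CD38). Of 6 mature B cell markers, CD22 was at 0 in every library and MS4A1 had 1 count in all, while CR2 and BACH2 carried nearly the whole sum of 142 to 163 CPM in shKDM6B and 179 to 197 CPM in shLuc libraries. Epithelial markers, mostly keratins, stood apart: all 10 had a count, and their sum was 37.4, 49.6 and 2.12 CPM in shKDM6B replicates 1 to 3, against 13.7, 3.16 and 3.64 CPM in shLuc replicates 1 to 3. Single markers of other blood cells moved too: the sum of 6 T cell markers, mostly CD3E, was 5.02 to 6.56 CPM in shKDM6B and 8.24 to 9.37 CPM in shLuc libraries, and that of 4 erythroid markers, mostly HBB, was 10.5 to 13.2 and 19.5 to 23.7 CPM, with CD3G and HBA2 at 0 throughout. The part of these markers in the results was not tested. The antigen values without the keratin-rich libraries (shKDM6B replicates 1 and 2 and shLuc replicate 1) are given beside each result where they change a call. The single remaining shKDM6B library was assumed to vary like the shLuc libraries. That library is also the deepest (9848351 counts), and the part of its depth in these values was not tested.

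As background, malignant plasma cells keep much of the surface of normal plasma cells, and therapy uses molecules that are dense there and rare elsewhere. TNFRSF17 encodes BCMA and TNFRSF13B encodes TACI, receptors for the cytokines BAFF and APRIL that keep plasma cells alive. SDC1 encodes syndecan-1 (CD138), a heparan sulphate proteoglycan, and CD38 encodes an enzyme that consumes NAD. SLAMF7 and CD48 belong to the SLAM family of immune cell adhesion receptors, FCRL5 to the Fc receptor-like family, GPRC5D is an orphan G protein-coupled receptor, and CD79A is the signalling chain of the B cell receptor, which plasma cells largely shut off. KDM6B removes methyl groups from histone H3 at the lysine where Polycomb proteins place a repressive mark, and the study asked what its depletion does to expression in myeloma cells.

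The windows upstream of 4 antigen genes are shown because these members changed by the largest folds or in opposite directions: FCRL5 and CD38 were lower, and TNFRSF13B and GPRC5D were higher, in shKDM6B cells. Each is the 250 bases before the annotated start, 5′ to 3′ on the gene's strand, from RefSeq on GRCh38.p14. That build is not the one the counts were made on, so the coordinates describe the sequence alone. FCRL5 lies at chr1:157552516-157552765 (minus strand), CD38 at chr4:15778078-15778327 (plus), TNFRSF13B at chr17:16972119-16972368 (minus) and GPRC5D at chr12:12952171-12952420 (minus). Capitals mark matches to the motifs searched.
FCRL5: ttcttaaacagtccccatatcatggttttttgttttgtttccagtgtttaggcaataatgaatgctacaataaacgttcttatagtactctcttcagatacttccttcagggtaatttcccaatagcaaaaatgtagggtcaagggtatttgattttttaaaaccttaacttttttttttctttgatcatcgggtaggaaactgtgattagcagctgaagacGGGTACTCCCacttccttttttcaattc
CD38: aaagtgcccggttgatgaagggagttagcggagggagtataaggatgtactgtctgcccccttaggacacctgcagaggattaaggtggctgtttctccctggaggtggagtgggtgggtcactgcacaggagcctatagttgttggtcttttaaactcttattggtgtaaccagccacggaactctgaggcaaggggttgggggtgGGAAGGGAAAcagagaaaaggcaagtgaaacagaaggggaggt
TNFRSF13B: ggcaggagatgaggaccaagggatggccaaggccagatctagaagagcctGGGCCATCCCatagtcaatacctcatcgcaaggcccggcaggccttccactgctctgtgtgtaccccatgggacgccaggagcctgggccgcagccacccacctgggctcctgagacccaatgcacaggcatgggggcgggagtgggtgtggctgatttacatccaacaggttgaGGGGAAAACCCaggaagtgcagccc
GPRC5D: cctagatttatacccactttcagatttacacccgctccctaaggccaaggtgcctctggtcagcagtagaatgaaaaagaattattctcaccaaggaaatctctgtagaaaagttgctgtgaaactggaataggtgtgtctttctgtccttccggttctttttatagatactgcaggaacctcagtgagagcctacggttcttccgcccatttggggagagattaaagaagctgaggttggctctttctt

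The windows were searched on both strands for 7 motifs. In CD38, the composite of an ETS and an IRF half-site (GGAA and GAAA with any 2 bases between) occurred once, starting 43 bases before the start, and 2.41% of 35116 RefSeq windows of the same length held it. The permissive NF-kB pattern (GGG and CC with any 5 bases between) occurred once in FCRL5 and 3 times in TNFRSF13B, where 2 of the matches overlap by all but 1 base, and 54.4% of all windows held it. GPRC5D held none of the 7. The interferon-response core (GAAA and GAAA with any 2 bases between; 3.02% of all windows; it can overlap the ETS and IRF composite), the octamer ATGCAAAT (1.63%), AP-1 TGANTCA (6.57%), the cyclic AMP element TGACGTCA (1.65%) and the unfolded protein response core ACGTGG (8.37%) were in none of the 4. GC content was 34.8% in FCRL5, 44.4% in GPRC5D, 52.4% in CD38 and 62.0% in TNFRSF13B, against a median of 58% over all windows. FCRL5 and CD38 had 3 CpG each, GPRC5D 4 and TNFRSF13B 5, which lie at or just above the lower quartile of all windows (3). The windows of SDC1, at 2 annotated starts, had 23 and 21 CpG, where the upper quartile is 23.

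Baseline levels in shLuc cells spanned nearly the whole range of tested genes, from a syndecan-1 message near the top to an FCRL5 message near the bottom. Levels between genes are compared as TMM-scaled CPM per kilobase of merged exons, and the percentile is the share of 12607 tested genes with a known length that lay below. SDC1 stood highest, with 142.1 CPM per kb (136.8 to 152.3 over 3 libraries), above 99.8% of genes. TNFRSF17 came next with 101.8 (98.75 to 104.8; 99.2%), then SLAMF7 with 66.2 (65.02 to 68.36; 97.1%) and GPRC5D with 59.6 (56.47 to 64.71; 95.9%). These 4 antigens were separated from each other in every shLuc library.

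TNFRSF13B, with 43.0 CPM per kb (41.25 to 45.91), and CD48, with 40.4 (39.11 to 42.45), followed, and they are the only neighbours in the order whose ranges overlapped. They lay above 91.2% and 90.0% of genes. CD38, the target of the most widely used myeloma antibodies, had 15.1 CPM per kb (14.34 to 15.93), above 62.7% of genes, so its message was mid-range in this line. CD79A with 1.04 (0.7309 to 1.202; 11.5%) and FCRL5 with 0.495 (0.417 to 0.5365; 5.39%) were near the floor of the genes tested. The place of GPRC5D depends on the gene length used: per kb of the longest transcript it had 64.6, below TNFRSF13B (77.2) and CD48 (73.7). The order of the other genes among themselves held. By that length, however, the shLuc ranges of CD79A (0.8732 to 1.436) and FCRL5 (0.9608 to 1.236) overlapped.

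Among the 9 genes, 2 were higher and 3 lower in shKDM6B than in shLuc cells at an adjusted p under 0.05, and 4 did not pass. Over all 13839 genes tested with the same edgeR quasi-likelihood fit, 39.1 percent were called, 20.1 percent higher and 18.9 percent lower, so a share of 5 in 9 is read against that high background and is not particular to these genes. The median log2 fold change of the 9 was -0.11, beside -0.0053 for all tested genes. In CPM, the 3 libraries of each group stood apart for 4 of the 9 (FCRL5, CD38, TNFRSF17 and SLAMF7, all lower in shKDM6B), where 48.4 percent of all tested genes had groups that stood apart. All 9 passed the filter on low counts, but FCRL5 passed through its shLuc libraries alone and had to differ to be tested at its level, so its count in this total is a description. Because these are bulk libraries, fewer cells carrying a message and less message per cell cannot be told apart for any of them.

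**Figure D1:**
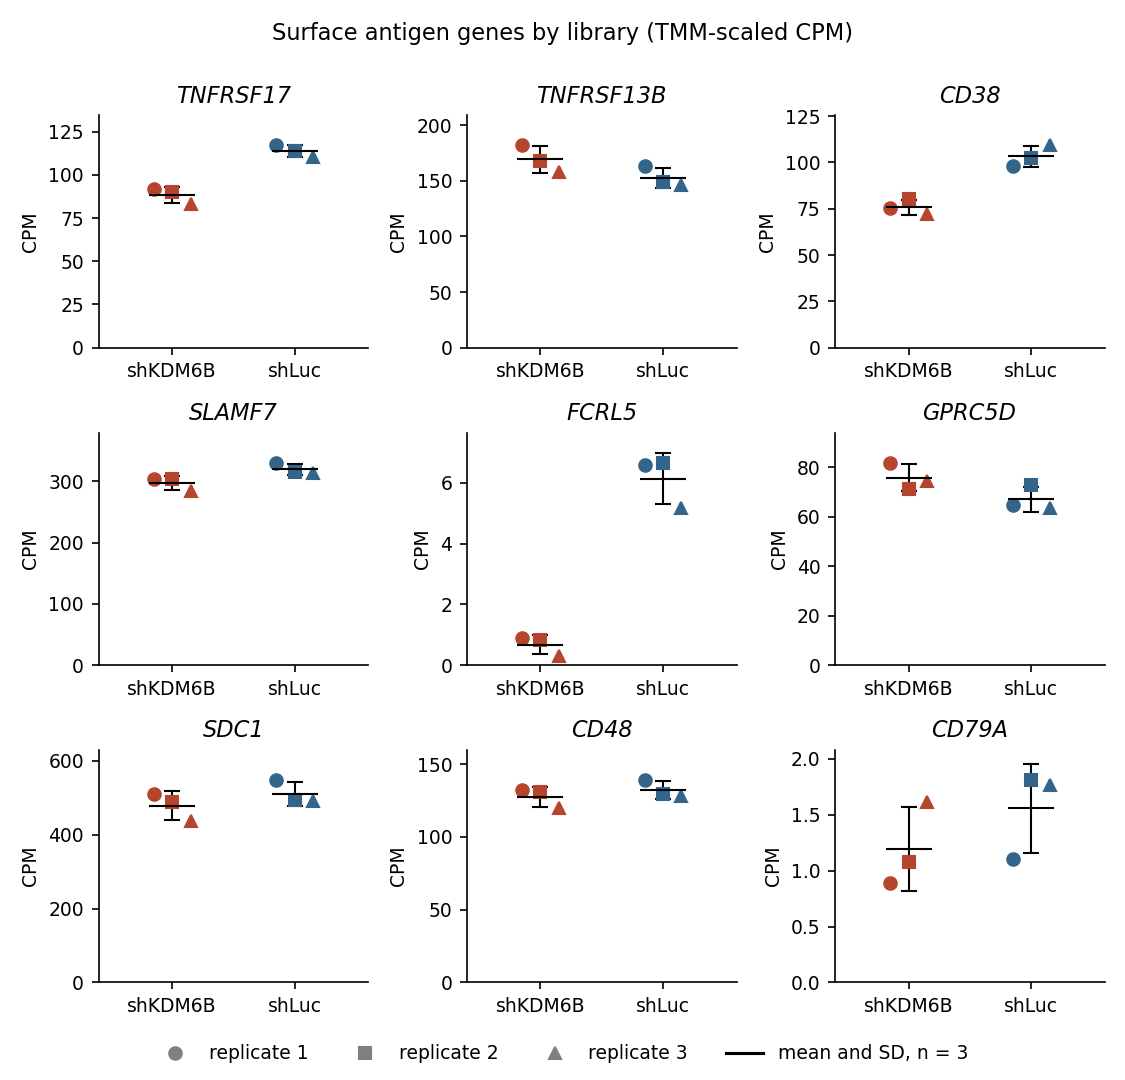
TMM-scaled CPM of each antigen gene in every library, 1 panel a gene, shKDM6B libraries on the left and shLuc on the right, with the mean and SD of 3. The groups are separate for FCRL5, CD38, TNFRSF17 and SLAMF7, all lower in shKDM6B, and overlap for the other 5.

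**Figure D2:**
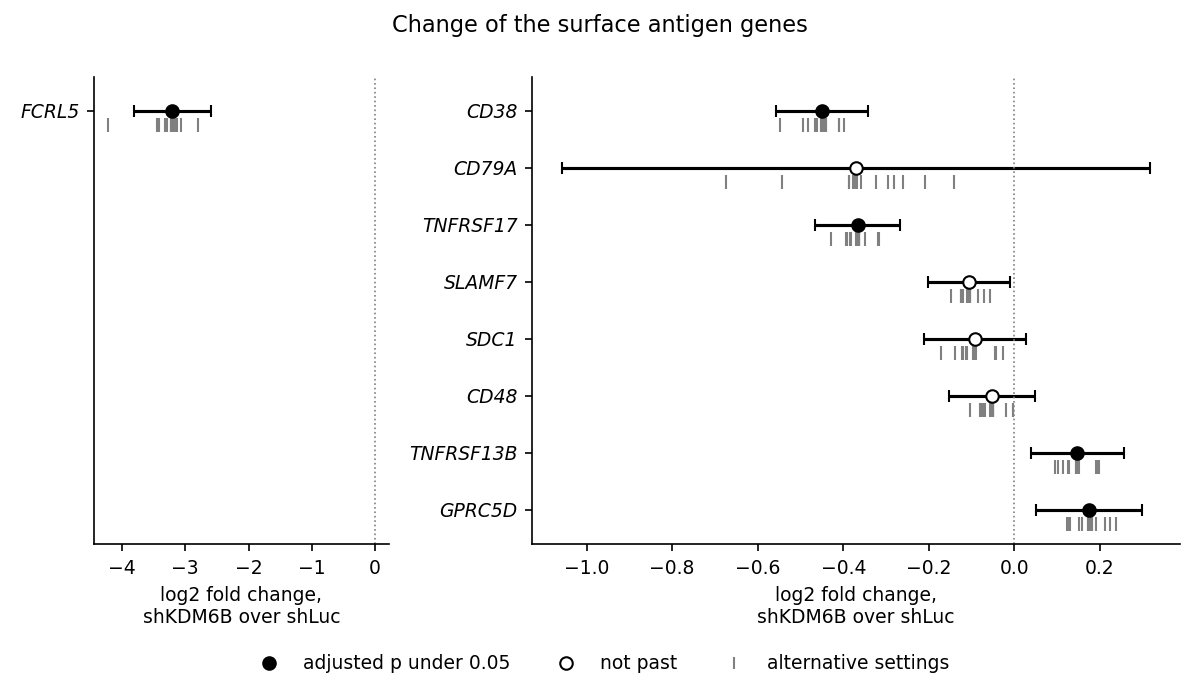
Log2 fold change (shKDM6B over shLuc) of the 9 antigen genes with the 95% confidence interval of the quasi-likelihood fit; filled points passed the adjusted threshold, open points did not, and grey ticks are the 17 alternative settings. FCRL5 has a panel with its own scale. FCRL5, at -3.20, is far from the others, which lie between -0.45 and 0.18.

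The receptors for BAFF and APRIL moved in opposite directions. TNFRSF17 (BCMA), which binds APRIL more tightly than BAFF and is the target of CAR T cells and bispecific antibodies, had 92.0, 90.0 and 83.3 CPM in shKDM6B replicates 1 to 3, against 117.1, 113.8 and 110.4 CPM in shLuc replicates 1 to 3. Every shKDM6B library lay below every shLuc library. The level in shKDM6B cells was 77.6% of that in shLuc cells (log2 fold change -0.37, SE 0.0477, 95% interval -0.47 to -0.27, adjusted p = 2.2e-06), and TNFRSF17 stayed past the threshold in 17 of 17 alternative fits, with values from -0.43 to -0.32.

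TNFRSF13B (TACI), which binds BAFF and APRIL alike, had 181.7, 167.4 and 158.2 CPM in shKDM6B cells, against 163.0, 148.6 and 146.4 CPM in shLuc cells. The groups overlap, since shLuc replicate 1 lay above shKDM6B replicate 3. The log2 fold change was 0.15 (SE 0.0522, 95% interval 0.04 to 0.26, adjusted p = 0.0289), a level of 110.7% of shLuc. That call was lost without shKDM6B replicate 1 (0.10, adjusted p = 0.169), shKDM6B replicate 2 (0.15, 0.0803), shLuc replicate 2 (0.13, 0.147) or shLuc replicate 3 (0.11, 0.137), without the keratin-rich libraries (0.10, 0.221), with DESeq2 (0.15, 0.096) and with upper-quartile scaling (0.13, 0.0594). Of its 3550 merged exon bases, 615 (17.3%) are shared with the same-strand pseudogene TBC1D27P, counted as TBC1D27 in the files, whose log2 fold change was -0.063.

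The balance of the pair needs no scaling between libraries. For every count of TNFRSF13B there were 0.506, 0.537 and 0.526 counts of TNFRSF17 in shKDM6B replicates 1 to 3, against 0.719, 0.766 and 0.754 in shLuc replicates 1 to 3. The 3 shKDM6B ratios (0.523 ± 0.0158, SD) lay below all shLuc ratios (0.746 ± 0.0246), a log2 difference of -0.51. The two-sided exact permutation p was 0.1, the smallest that 3 against 3 allows. Set against GPRC5D in the same way, TNFRSF17 had 1.12, 1.26 and 1.12 counts for each GPRC5D count in shKDM6B and 1.81, 1.57 and 1.74 in shLuc cells (permutation p = 0.1). These are 2 of 4 ratios computed. The permutation p was 0.1, the smallest possible, for all 4, and it was not adjusted for their number.

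**Figure D3:**
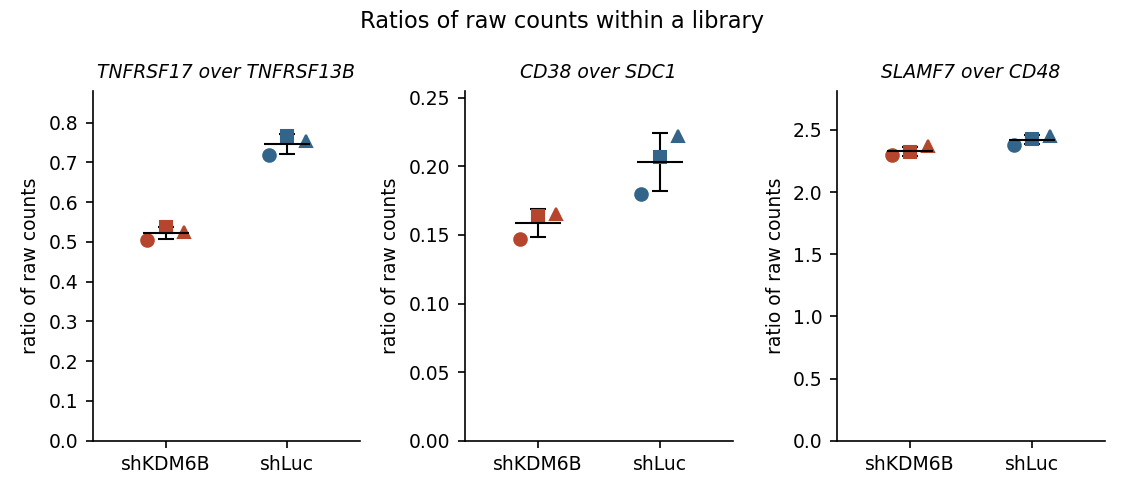
Ratios of raw counts between antigen genes within each library, shKDM6B on the left and shLuc on the right of each panel. Circles, squares and triangles are replicates 1, 2 and 3, and bars are the mean and SD of 3. All 3 ratios plotted are lower in the 3 shKDM6B libraries, most for TNFRSF17 over TNFRSF13B and least for SLAMF7 over CD48.

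Of the 9 genes of the remaining BAFF and APRIL system, 8 were tested, of which 3 rose, 3 fell and 2 did not pass (median log2 fold change 0.083). TNFSF13, the gene for APRIL itself, fell to 6.35 ± 0.684 CPM in shKDM6B cells, against 10.3 ± 0.641 CPM in shLuc cells (-0.70, SE 0.142, adjusted p = 4.01e-04). Among the adaptors that carry the signal of these receptors, TRAF1 fell (-0.58, adjusted p = 4.99e-06), while TRAF2 (0.18, 0.00252) and TRAF3 (0.20, 0.00231) rose. TRAF2 lost its call without the keratin-rich libraries (0.17, 0.0524), where 1 gene of the list was higher. TNFSF13B, which encodes BAFF, was too low to test, with 25 counts in all shKDM6B and 27 in all shLuc libraries.

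BCMA is cut from the cell surface by gamma-secretase, and syndecan-1 by metalloproteinases, while heparanase trims the chains of syndecan-1. Of 9 tested genes, 8 for such proteases and their subunits and HPSE for heparanase (0.14, adjusted p = 0.0614), 2 rose, 2 fell and 5 did not pass (median -0.045). ADAM10, a sheddase, fell to 281.5 ± 8.92 CPM in shKDM6B cells, against 362.6 ± 11.2 CPM in shLuc cells (-0.37, adjusted p = 1.14e-06), and ADAM17, a related sheddase, rose (0.26, 4.16e-04). The gamma-secretase subunits PSEN2 (0.12, 0.0478) and NCSTN (-0.12, 0.0333) passed narrowly. PSEN2 lost its call without any 1 of the 6 libraries (0.087 to 0.14, adjusted p = 0.0627 to 0.211), and NCSTN without any 1 except shLuc replicate 3 (-0.13 to -0.097, 0.062 to 0.112). Without single libraries the list had 1 gene higher in place of 2 (any library except shLuc replicate 1), 1 lower in place of 2 (shKDM6B replicates 2 and 3 and shLuc replicate 2) or 4 lower (shLuc replicate 3).

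CD38, an ectoenzyme that turns NAD into cyclic ADP-ribose and is the target of daratumumab and isatuximab, had 75.2, 80.3 and 72.3 CPM in shKDM6B replicates 1 to 3, against 98.3, 102.2 and 109.2 CPM in shLuc replicates 1 to 3. The highest shKDM6B library was below the lowest shLuc library. CD38 was at 73.3% of shLuc (log2 fold change -0.45, SE 0.0517, 95% interval -0.56 to -0.34, adjusted p = 3.88e-07), and 16.8% of tested genes changed by at least as much in either direction. It stayed past the threshold in 17 of 17 alternative fits (-0.55 to -0.40). For each count of SDC1, CD38 had 0.147, 0.164 and 0.165 counts in shKDM6B cells, against 0.18, 0.207 and 0.222 in shLuc cells, again with no overlap (permutation p = 0.1).

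Of 16 other genes of NAD and adenosine handling, 12 were tested, of which 4 rose, 2 fell and 6 did not pass (median 0.027). ENPP1, an ectonucleotidase, fell (-0.63, adjusted p = 8.72e-06). ADA, which deaminates adenosine, rose (0.33, 2.01e-05), and so did NAMPT, the rate-limiting enzyme of NAD salvage (0.25, 1.23e-04), and SARM1, an intracellular NAD hydrolase (1.31, 6.36e-05). Leaving out shKDM6B replicate 1 or 2 or any shLuc library left 1 gene lower in place of 2. BST1, the closest relative of CD38, was too low to test.

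FCRL5, an Fc receptor-like protein on B and plasma cells that is a target of bispecific antibodies, showed the largest change of the 9. It had 7, 7 and 3 counts in shKDM6B replicates 1 to 3, against 48, 59 and 47 counts in shLuc replicates 1 to 3, or 0.891, 0.836 and 0.303 CPM against 6.59, 6.66 and 5.18 CPM. Every shLuc library had several times the counts of every shKDM6B library. The level in shKDM6B cells was 10.9% of shLuc (log2 fold change -3.20, SE 0.294, 95% interval -3.81 to -2.59, adjusted p = 1.29e-08), and 7 tested genes had a lower log2 fold change. FCRL5 had 17 counts in all shKDM6B libraries against 154 in all shLuc libraries, and the alternatives gave -4.23 to -2.80. With no filter on low counts, the value from the same counts was also -3.20. Because FCRL5 passed the filter through its shLuc libraries alone, its adjusted p is a description. In neither group was FCRL5 an abundant message, with 0.0545 CPM per kb in shKDM6B and 0.495 CPM per kb in shLuc cells.

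Its family gave few tested genes. Of 7 other FCRL genes, 3 passed the filter: FCRL6 (-0.88, SE 0.201, adjusted p = 0.0013) and FCRLA (-0.86, SE 0.221, 0.00364) fell, FCRLB had a log2 fold change of 0.52 (0.0795), and the median was -0.86. By edgeR 0 were higher, with 1 at an unadjusted p under 0.05, and DESeq2 also called 0 higher. Without shLuc replicate 2, 1 gene was higher, and without the keratin-rich libraries FCRLA lost its call (-0.56, 0.191). FCRL6 had 20, 24 and 24 counts in shKDM6B against 36, 42 and 43 in shLuc cells. FCRL4 was at 0 everywhere. FCRL1, FCRL2 and FCRL3, named after their values were seen, were below the filter, with 1, 2 and 1 against 4, 6 and 5 counts for FCRL1, 1, 1 and 0 against 2, 2 and 1 for FCRL2, and 0, 0 and 0 against 2, 1 and 1 for FCRL3, shKDM6B libraries first in each pair.

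The 5 tested genes whose profile over the 6 libraries was most like that of FCRL5, by the root mean square difference of log2 CPM after centring each gene on its shLuc mean, were LDLRAD4 (0.230), FOS (0.406), FOSB (0.480), TLR3 (0.488) and a transcript known by a clone name alone (0.447). LDLRAD4 had nearly the same counts, 7, 7 and 3 in shKDM6B against 37, 46 and 40 in shLuc cells. FOS, an AP-1 subunit gene, had far more, 213, 112 and 114 against 1112, 1015 and 976, with a log2 fold change of -2.88, and FOSB, its relative, had 36, 26 and 24 against 454, 321 and 265 (-3.65). TLR3, a receptor for double-stranded RNA, had 2, 3 and 0 counts against 10, 16 and 12. Like FCRL5, LDLRAD4, TLR3 and the clone-named transcript passed the filter through their shLuc libraries alone.

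On chromosome 1, the 6 nearest tested genes around FCRL5, by the order of RefSeq genes, lie beyond 5 to 56 genes that were not tested. Of them 4 fell, 1 rose and 1 did not pass, where 18.9 percent of all tested genes fell and 20.1 percent rose. ETV3 (-0.17, adjusted p = 0.00358), ARHGEF11 (-0.31, 6.05e-05) and the DNA sensor genes IFI16 (-0.12, 0.0383) and AIM2 (-1.09, 1.01e-08) were lower, and SH2D2A was higher (0.50, 0.0227). IFI16 lost its call without shKDM6B replicate 2 or 3 or shLuc replicate 1 or 3 (-0.14 to -0.080, adjusted p = 0.0595 to 0.215), and SH2D2A without shKDM6B replicate 3 (0.28, 0.232), shLuc replicate 2 (0.51, 0.0519) or shLuc replicate 3 (0.48, 0.0517). ETV3 lost its call without the keratin-rich libraries (-0.16, 0.0692), with DESeq2 (-0.16, 0.0526) and with scaling from thinly covered genes (-0.12, 0.157).

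SLAMF7, the self-binding receptor targeted by elotuzumab, had 304.1, 303.6 and 283.7 CPM in shKDM6B replicates 1 to 3, against 330.4, 314.8 and 314.3 CPM in shLuc replicates 1 to 3. The groups did not overlap, but the difference was small, 92.9% of shLuc (log2 fold change -0.11, SE 0.0458, 95% interval -0.20 to -0.01), and did not pass the adjusted threshold (adjusted p = 0.0711, unadjusted p = 0.0301). It passed in 3 of 17 alternatives: without the keratin-rich libraries (-0.15, adjusted p = 0.0179), with upper-quartile scaling (-0.12, 0.0362) and with the replicate number as a block (-0.11, 0.00779). SLAMF7 and CD48 lie close together on chromosome 1, with 2 untested genes between them.

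CD48, a GPI-anchored ligand found on most leukocytes, had 132.4, 130.6 and 119.7 CPM in shKDM6B cells, against 139.0, 129.6 and 128.0 CPM in shLuc cells. The groups overlap, and the log2 fold change was -0.052 (SE 0.0482, 95% interval -0.15 to 0.05, adjusted p = 0.423). None of the 17 alternatives took it past the threshold. Of its 3274 merged exon bases, 976 (29.8%) lie opposite the antisense gene AL121985.1, which had 0 to 2 counts per library. The ratio of SLAMF7 to CD48 counts was 2.3, 2.32 and 2.37 in shKDM6B and 2.38, 2.43 and 2.45 in shLuc cells, a log2 difference of -0.054 with a permutation p of 0.1.

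Other SLAM genes were mostly below the filter in this line: 4 of 11 receptors, ligands and adaptors of the family were tested, of which 2 rose, 1 fell and 1 did not pass (median 0.098). SLAMF6 (Ly108), a self-binding receptor, fell, with 62, 68 and 94 counts in shKDM6B against 141, 171 and 208 in shLuc cells (-1.27, SE 0.118, adjusted p = 1.55e-08). CD244, the receptor for CD48, rose on low counts, 42, 51 and 49 in shKDM6B against 23, 30 and 28 in shLuc cells (0.76, SE 0.191, 0.003), and CD58, an adhesion ligand, rose slightly (0.26, 0.0154). CD244 lost its call with DESeq2 (adjusted p = 0.0515) and without the keratin-rich libraries (0.61, 0.137). CD58 lost it there too (0.131) and without shKDM6B replicate 3 (0.24, 0.0534) or shLuc replicate 1 (0.21, 0.0743), so that 1 gene of the list was higher without either library. DESeq2 and the fit without the keratin-rich libraries called 0 of the list higher, with 2 and 3 genes at an unadjusted p under 0.05. SLAMF6 and CD244 are also among the nearest tested genes of SLAMF7 and CD48, with F11R, an adhesion gene (-0.19, 0.00105), and NCSTN, so that genes that rose, fell and did not pass lie side by side there.

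GPRC5D, an orphan receptor that is the target of talquetamab, had 81.8, 71.5 and 74.4 CPM in shKDM6B replicates 1 to 3, against 64.8, 72.7 and 63.5 CPM in shLuc replicates 1 to 3. The groups overlap through shLuc replicate 2, which lay above shKDM6B replicate 2. The fold change was 0.18 on the log2 scale (SE 0.0595, 95% interval 0.05 to 0.30, adjusted p = 0.0228), a level of 112.9% of shLuc. The call was lost without shKDM6B replicate 1 (0.12, adjusted p = 0.125), shLuc replicate 1 (0.15, 0.0649) or shLuc replicate 3 (0.13, 0.117), without the keratin-rich libraries (0.13, 0.236) and with DESeq2 (0.18, 0.127). Of its 3 relatives in the files, GPRC5B alone was tested (-0.30, adjusted p = 0.42). Its neighbours HEBP1 (0.20, 0.0148) and KIAA1467 (0.23, 5.29e-04) were higher; HEBP1 lost its call without shKDM6B replicate 2 (0.18, 0.0572), and both lost it without the keratin-rich libraries (0.22, 0.116 and 0.18, 0.0582).

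SDC1, the defining surface proteoglycan of plasma cells, had 510.6, 489.5 and 436.9 CPM in shKDM6B replicates 1 to 3, against 547.4, 492.8 and 491.9 CPM in shLuc replicates 1 to 3. The groups overlap by 1 library, and the log2 fold change of -0.093 did not pass (SE 0.0574, 95% interval -0.21 to 0.03, adjusted p = 0.215). Without the keratin-rich libraries, a comparison of 1 shKDM6B with 2 shLuc libraries, the log2 fold change was -0.17. The shKDM6B library left, replicate 3, was the deepest (9848351 counts) and had the lowest SDC1 level of its group. The part of its depth in this value was not tested. SDC1 stayed the highest of the 9 in both groups, with 133.2 CPM per kb in shKDM6B and 142.1 in shLuc cells.

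Of 18 tested genes for other syndecans and for heparan sulphate synthesis, 5 rose, 5 fell and 8 did not pass (median -0.038). SULF1, which removes 6-O-sulphate from heparan sulphate outside the cell, fell to 169 CPM in shKDM6B cells, against 260.0 CPM in shLuc cells (-0.62, adjusted p = 6.82e-10), and EXTL2, a glycosyltransferase that limits chain synthesis, fell (-0.51, 2.41e-04). XYLT2, a xylosyltransferase that starts the chain, rose (0.33, 5.71e-06), as did GLCE, the epimerase that modifies it (0.47, 5.04e-04). Around SDC1 on chromosome 2, LAPTM4A (0.60, 3.58e-09), RHOB (0.47, 2.7e-08) and HS1BP3 (0.32, 1.28e-04) rose and TTC32 fell (-0.65, 1.34e-05), while SDC1 between them did not pass.

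CD79A is kept here as a B cell antigen. It had 7, 9 and 16 counts in shKDM6B replicates 1 to 3, against 8, 16 and 16 in shLuc replicates 1 to 3. The groups overlap (0.891 to 1.615 CPM in shKDM6B, 1.099 to 1.807 CPM in shLuc), and the log2 fold change of -0.37 had an interval of -1.06 to 0.32 (adjusted p = 0.407). At this depth a change of the size seen for TNFRSF17 or CD38 would not have been detectable in CD79A. Its partner chain CD79B was higher in level, at 48.4 CPM in shKDM6B and 44.1 CPM in shLuc cells, and did not pass (0.14, 0.0998). Of 17 genes of the receptor complex and its signalling, 12 were tested, of which 4 rose, 1 fell and 7 did not pass (median 0.021); with DESeq2, 2 rose. The phosphatase gene INPP5D rose (0.30, 7.78e-06) and the phospholipase gene PLCG2 fell (-0.21, 0.00211). CD81, a coreceptor gene, had 19, 20 and 21 counts in shKDM6B against 8, 12 and 7 in shLuc cells. It passed the filter mainly through its shKDM6B libraries, the group where it is high. It rose (log2 fold change 1.09, adjusted p = 0.00591) but missed the threshold with DESeq2 (adjusted p = 0.0949). Without the keratin-rich libraries the log2 fold change of CD81 was 0.99.

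Around all 9 antigen genes, 50 distinct neighbours were tested, at most 3 on each side, with SLAMF7 and CD48 counted as neighbours of each other. Of the 50, 8 rose, 13 fell and 29 did not pass (median -0.064), beside 39.1 percent called over all tested genes. Next to TNFRSF17, CPPED1 was lower (-0.31, adjusted p = 0.00916), and next to TNFRSF13B, PLD6 was higher (0.62, 8.75e-09) and ZNF624 lower (-0.56, 0.0204). FBXL5 was lower next to CD38 (-0.48, 1.01e-06), and ARHGEF1 (-0.19, 0.00131) and PLEKHA3P1 (-1.20, 0.00189) next to CD79A. PLEKHA3P1 had 9, 8 and 13 counts in shKDM6B against 18, 28 and 21 in shLuc cells. It passed the filter mainly through its shLuc libraries. ZNF624 lost its call without shKDM6B replicate 1 or 2 or shLuc replicate 2 or 3 (-0.56 to -0.46, adjusted p = 0.0513 to 0.0893), and ZNF624 (-0.33, 0.355), CPPED1 (-0.31, 0.103) and PLEKHA3P1 (-1.05, 0.077) without the keratin-rich libraries. With DESeq2, CPPED1, ZNF624, SH2D2A, IFI16, HEBP1, NCSTN and the adhesion ligand gene CD58 missed the threshold (adjusted p = 0.103 to 0.167). With scaling from thinly covered genes, IFI16 (-0.074, adjusted p = 0.457), NCSTN (-0.067, 0.534), F11R (-0.14, 0.0833) and ARHGEF1 (-0.15, 0.155) missed it.

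Of 29 tested genes for other surface antigens described in myeloma, 10 rose, 5 fell and 14 did not pass (median 0.081). IGF1R, a growth factor receptor (0.45, adjusted p = 1.17e-07), LRRC8D, a subunit of volume-regulated anion channels (0.40, 7.02e-07), and CD276, an immune checkpoint molecule (0.26, 8.47e-05), rose, while CCR10, a chemokine receptor of plasma cells, fell (-0.55, 4.34e-06). KIT was at 0 in every library. The complement regulators CD46 (-0.089, adjusted p = 0.124), CD55 (-0.12, 0.132) and CD59 (-0.10, 0.13), which protect antibody-coated cells from lysis, did not pass: edgeR called 0 of 3, with 0 at an unadjusted p under 0.05, and DESeq2 called 0, while 1 was lower without the keratin-rich libraries.

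Of 13 tested transcription factor genes known to act on plasma cell and B cell antigens, 4 rose and 6 fell (median -0.023), while 3 fell with DESeq2 and 2 rose without the keratin-rich libraries. ETS1, an inhibitor of plasma cell differentiation, rose to 246 CPM in shKDM6B cells, against 144 CPM in shLuc cells (0.77, adjusted p = 2.1e-11). BACH2, a B cell repressor of the plasma cell program (-0.58, 2.65e-08), POU2F2, which binds the octamer (-0.38, 8.97e-05), and SPI1, an ETS factor of B and myeloid cells (-0.44, 0.00148), fell. Over the 11 related lists together, 112 of 145 genes were tested, of which 34 rose, 27 fell and 51 did not pass, beside the background of 39.1 percent called.

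**Figure D4:**
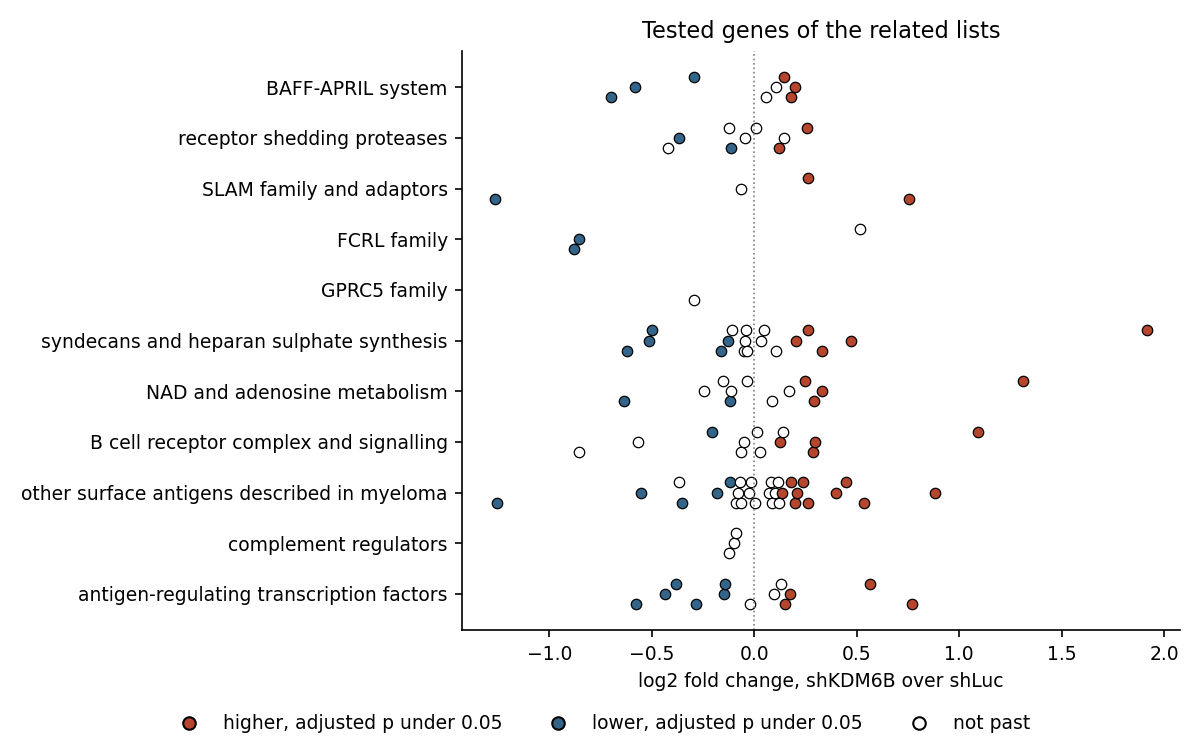
Log2 fold change (shKDM6B over shLuc) of each tested gene in the 11 lists related to the antigens, 1 line a list; filled points passed the adjusted threshold (red higher, blue lower) and open points did not. Medians lie between -0.10 and 0.098 in 9 of the 11 lists; the FCRL family (-0.86, 3 genes) and the GPRC5 family (-0.30, 1 gene) lie lower.

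One property of these counts touches the abundant antigens. If counts followed depth, a gene's counts would grow in proportion to the library total, with an exponent of 1 within a group. The median exponent was 1.39 for the 3380 tested genes covered by fewer than 0.03 counts per exon base, 0.799 for the 1603 genes with 0.3 to 1, and 0.32 for the 48 genes above 1. SDC1 (1.17 counts per base), TNFRSF17 (0.77), SLAMF7 (0.544), GPRC5D (0.544), TNFRSF13B (0.386) and CD48 (0.338) are in the last 2 classes, CD38 (0.112) is among genes whose median exponent was 1.07, and CD79A (0.00798) and FCRL5 (0.00229) in the first. The exponents of the genes themselves, each from 6 libraries, were 0.444 for SDC1, 0.522 for TNFRSF13B, 0.641 for CD48, 0.728 for TNFRSF17 and 0.782 for SLAMF7, but 1.02 for GPRC5D, 1.14 for CD38, 3.53 for CD79A and -1.66 for FCRL5, the last 2 on few counts. In shKDM6B replicate 3, the deepest library, 7 of the 9 genes had the lowest CPM of their group, CD38 and FCRL5 among them, and GPRC5D and CD79A did not. Scaling from the 3380 thinly covered genes gave -0.32 for TNFRSF17, 0.20 for TNFRSF13B (adjusted p = 0.0257), -0.40 for CD38, -0.058 for SLAMF7 (0.639), -3.16 for FCRL5, 0.22 for GPRC5D (0.004), -0.043 for SDC1, -0.0036 for CD48 and -0.32 for CD79A, with the calls unchanged. The part of this property in the results was not tested beyond that.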

How the data were processed

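RNA of 6 MM.1S libraries, 3 shKDM6B and 3 shLuc, was measured by sequencing. The deposited values are raw counts per gene symbol, 1 table a library. The authors used STAR, featureCounts and DESeq with GRCh37 (hg19), per the submitters' processing notes; for versions, annotation, strand setting and multi-mapping reads the sources used here give nothing. The kit, as far as its name shows, does not mark strand, so antisense partners cannot be told apart. A deposited table of normalized values (linear signal) equalled the counts divided by 1 factor per library. In each library 1 line of the counts was left out. Among the normalized values, 28 gene names had turned into dates, and 56609 of the 56637 symbols were matched to the counts.

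Differences were tested on the counts by edgeR 4.0.16 under R 4.3.3 (filterByExpr, TMM, quasi-likelihood test, group as the single term), checked on simulated data, with Benjamini-Hochberg adjustment over 13839 genes and a threshold of 0.05. Adjusted p-values are from this test except where the text names another tool. Values are means ± SD over 3 libraries, and fold changes are shKDM6B over shLuc. The depth, 7338393 to 9848351 counts a library, limits what can be seen in genes with few counts. Alternatives used DESeq2 1.42.0 and limma 3.58.1, other scalings and filters, single libraries left out, and the keratin-rich libraries left out. Exon lengths are from GENCODE v29 on GRCh38, matched by symbol, and neighbours follow RefSeq order on GRCh38.p14. Promoter windows were found for 7 of 9 antigen genes. Every pair of replicates differed by more than counting error, so each library counted as 1 sample.

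The antigen genes, the related lists and the rules were chosen with earlier results of these data known. Besides the 9 genes and KDM6B, the text names up to 4 genes per list past the threshold with the smallest p, the 5 genes most like FCRL5, and tested neighbours past the threshold, up to 3 on each side of a gene; any other gene was named after its values were seen. Some genes that this rule names are not reported here.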

Additional observations from a re-analysis of the deposited data

How the results depend on the processing

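TNFRSF17, CD38 and KDM6B kept their direction and stayed past the threshold in 17 of 17 alternatives, KDM6B between -0.79 and -0.58, and no antigen gene reversed. FCRL5 did too, but entered the fits with a filter through its shLuc libraries alone. TNFRSF13B lost its call with upper-quartile scaling (0.13, adjusted p = 0.0594), DESeq2 (0.15, 0.096) and without the keratin-rich libraries (0.10, 0.221), with 0.10 to 0.20 when single libraries were left out. GPRC5D lost it with DESeq2 (0.18, 0.127) and without the keratin-rich libraries (0.13, 0.236), with 0.12 to 0.24 when single libraries were left out. SLAMF7 passed with upper-quartile scaling (-0.12, 0.0362), the replicate block (-0.11, 0.00779) and without the keratin-rich libraries (-0.15, 0.0179). SDC1 passed with the block (-0.094, 0.0205), and its value was -0.17 without those libraries, where the deepest library alone stands for shKDM6B. Antigen genes called higher were 1 with upper-quartile scaling, 0 with DESeq2 (2 at an unadjusted p under 0.05), 0 without the keratin-rich libraries (0 at an unadjusted p under 0.05) and 0 to 2 with single libraries left out; those called lower were 5 with the block and 5 without the keratin-rich libraries. The cause was not tested. Over all genes DESeq2 called 1831 higher and 1590 lower, and scaling from thinly covered genes 3127 higher and 1904 lower (62.2% of calls higher), beside 2783 and 2622 (51.5%). Per kb of the longest transcript, shLuc levels were 155.2 (SDC1), 114.5 (TNFRSF17), 90.3 (SLAMF7), 77.2 (TNFRSF13B), 73.7 (CD48), 64.6 (GPRC5D), 18.2 (CD38), 1.24 (CD79A) and 1.14 (FCRL5) CPM. Same-numbered replicates 1, 2 and 3 deviated together with correlations of 0.347, -0.0935 and 0.258. Replicates 1 and 3 of shKDM6B correlated best with the shLuc library of the same number, and shKDM6B replicate 2 with shLuc replicate 3 (0.113). With 3 libraries per group, these values cannot decide whether the numbers pair the libraries. The block gave 3166 higher and 3052 lower calls. Over 56 other named genes, 62 of 951 alternative values lost the call and 0 reversed. Depth limits CD79A and FCRL5, with under 20 counts in each shKDM6B library.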
